A study of Mus musculus with 5 samples.

Results

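Astrocyte endfoot and glutamate uptake genes are described here as a group of 10, chosen by symbol: Aqp4, Kcnj10, Slc1a2, Slc1a3, Gja1, Gjb6, Aldh1l1, Aldoc, Glul and S100b. All 10 were found among the 55573 gene rows of each library, and all 10 passed the filter on low counts that left 23592 genes for testing. The bulk RNA libraries were made from the right hemisphere of C57BL/6 female mice, 7 to 8 weeks old at inoculation, that carried a GL261 tumor. GL261 is a mouse glioma cell line, and the cells used here had been transduced with luciferase and mKate2 and placed in the right caudate-putamen. The vehicle group (3 libraries) received a dilution buffer, and the UMBO group (2 libraries) received ultrasound-mediated blood-brain barrier opening, which combines low-intensity pulsed ultrasound with intravenous microbubbles. Sessions were on days 21 and 24, and the tissue was taken 24 h after the last session. No label or method used here states that the vehicle mice had sham sonication or microbubbles, so ultrasound and microbubbles cannot be told apart. The study's methods describe 1 more mouse than there are libraries, and a further UMBO library was not analysed here. Each library pools tumor, brain and blood-derived cells, so for every value below fewer astrocytes and less RNA per astrocyte cannot be told apart.

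Astrocytes wrap brain vessels with endfeet, where the water channel aquaporin-4 and the potassium channel Kir4.1 are concentrated. They clear synaptic glutamate through the transporters GLT-1 (Slc1a2) and GLAST (Slc1a3), convert it to glutamine with glutamine synthetase (Glul), and share ions and metabolites through gap junctions made of the connexins Cx43 (Gja1) and Cx30 (Gjb6). Aldh1l1 (folate metabolism), Aldoc (aldolase C, glycolysis) and S100b (a calcium-binding protein) are used as astrocyte markers, although S100b and Glul are also made by oligodendrocyte-lineage cells.

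Libraries held 59736771 to 86164159 counted reads. UMBO replicate 2 stood apart from the other libraries at 133.7 on the largest component of variation, which held 78.7% of the variance, with the others between -68.4 and 17.0. Results for the 10 genes are therefore also given without it where that changes them. All pairs of libraries differed by far more than sampling noise (smallest chi-square divided by the number of genes, 58.1, against 1 for noise alone), so none was counted as a repeat. The labels number the libraries within each group and give no litter, cage or batch. That each library is a different mouse rests on the study's methods, which divide mice between the groups. Markers of the labelled tissue were present: the 10 neuronal markers summed to between 3765 and 11026 CPM, and the 20 other astrocyte identity genes to between 1585 and 2193 CPM. CPM gives a gene's reads relative to all reads of its library, with library sizes scaled by the trimmed mean of M-values (TMM). A member had between 3311 and 244390 reads in a library, so counting error was small beside the spread between mice.

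None of the 10 genes differed between UMBO and vehicle past the threshold. With the quasi-likelihood test of edgeR, 0 of the 10 had an adjusted p under 0.05, against 0 of 23592 genes tested (0%), and 0 of the 10 had an unadjusted p under 0.05, against 1738 genes (7.37%), of which 1251 were higher with UMBO (5.30%) and 487 lower (2.06%). The DESeq2 Wald test called 40 genes at an adjusted p under 0.05 and limma-voom called 0, and no member was among them. The fitted log2 fold change was above 0 in 5 members and below 0 in 5, where 50.9% of all genes tested were above 0. The median was -0.04 over the members and 0.01 over all genes tested. The members' edgeR adjusted p lay between 0.497 and 0.997. This median rested on which UMBO library was in the comparison: it was 0.25 without UMBO replicate 2, with 9 of the 10 genes above 0, and -0.53 without UMBO replicate 1, with 2 of the 10 above 0.

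The UMBO libraries differed from each other in these genes. UMBO replicate 1 was above every vehicle library in 5 members, within the vehicle range in 5 and below it in 0. The shares of all genes tested with these patterns were 18.6%, 63.4% and 17.9%. UMBO replicate 2 was below every vehicle library in 7 members (41.6% of all genes tested), above every one in 2 (42.2%) and within the range in Gjb6 alone (16.1%). Reads on the 10 genes made up 0.408% of all counts in UMBO replicate 2, against 0.669% in UMBO replicate 1 and 0.555% to 0.701% in the vehicle libraries. The vehicle libraries also differed. On the log2 scale vehicle replicate 3 lay above the vehicle mean in all 10 members, although by just 0.00 for Aldh1l1 and 0.01 for S100b. Vehicle replicate 2 lay above this mean in 4 members and vehicle replicate 1 in Slc1a2 alone. About 50% of all genes tested lay above it in each, between 48.7% and 50.9%.

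**Figure D1:**
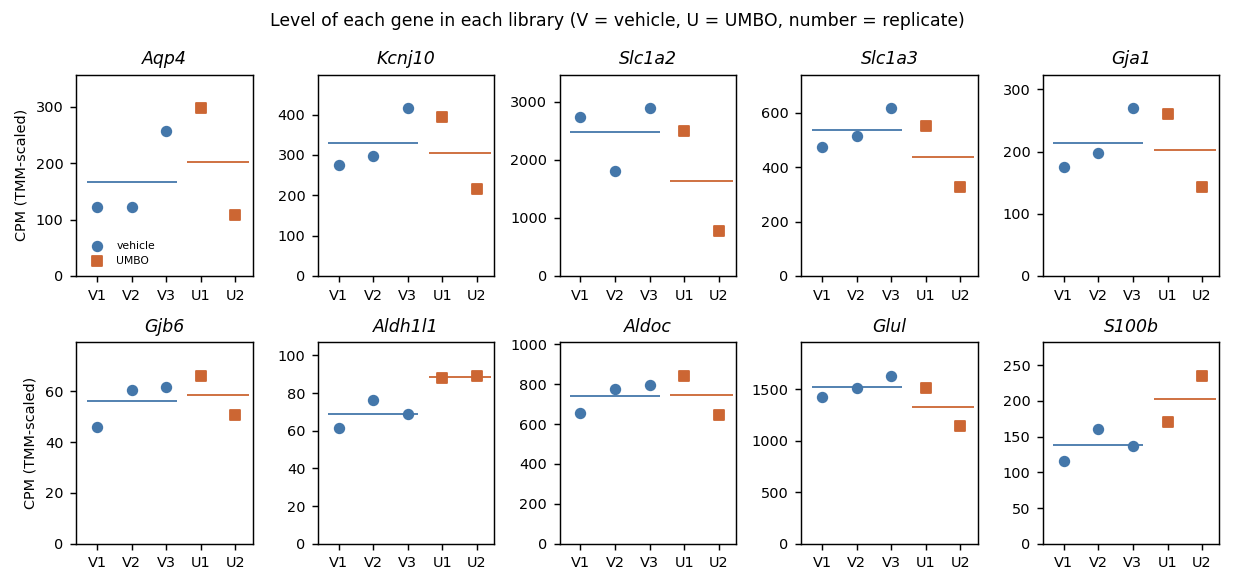
Level of each of the 10 genes in CPM (vertical axis, from 0, TMM-scaled) in the 3 vehicle libraries (circles, V1 to V3) and the 2 UMBO libraries (squares, U1 and U2), with the horizontal line at each group's mean. UMBO replicate 2 is the lowest library in 7 panels, and both UMBO points lie above every vehicle point only for Aldh1l1 and S100b.

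Aqp4, the endfoot water channel (ENSMUSG00000024411, chromosome 18, reverse strand), was at 122, 122 and 258 CPM in vehicle replicates 1 to 3, at 298 CPM in UMBO replicate 1 and at 108 CPM in UMBO replicate 2. The UMBO libraries were thus the highest and the lowest of the 5, and the groups overlapped. Its log2 fold change was 0.28 (standard error, SE, 0.534, 95% interval -1.03 to 1.58, edgeR adjusted p 0.786). It was 0.83 without UMBO replicate 2 and -0.66 without UMBO replicate 1. Its range over the 5 libraries was 2.75-fold, and its SD among the vehicle libraries, 0.623 on the log2 scale, was the largest of the 10 genes.

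Kcnj10 (ENSMUSG00000044708, chromosome 1 of GRCm38, 172341210 to 172374085) encodes Kir4.1, the channel that takes up extracellular potassium. Its vehicle values were 274, 297 and 416 CPM and its UMBO values 395 and 215 CPM, again with one UMBO library near the top and the other at the bottom. The log2 fold change was -0.11 (SE 0.346, 95% interval -0.96 to 0.74, edgeR adjusted p 0.871), and it was 0.26 without UMBO replicate 2.

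Gja1 (ENSMUSG00000050953, chromosome 10, 56377330 to 56402513), which encodes Cx43, followed the same order. It was at 175, 197 and 270 CPM with vehicle and at 261 and 143 CPM with UMBO, and the groups overlapped. The log2 fold change was -0.09 (SE 0.339, 95% interval -0.92 to 0.74, edgeR adjusted p 0.901), and it was 0.29 without UMBO replicate 2. Gjb6 (ENSMUSG00000040055, chromosome 14, 57123303 to 57133611), which encodes Cx30, varied less, at 46.1, 60.4 and 61.5 CPM with vehicle and at 66.0 and 50.6 CPM with UMBO. Its log2 fold change was 0.06 (SE 0.214, 95% interval -0.47 to 0.58, edgeR adjusted p 0.893), and it was 0.24 without UMBO replicate 2 and -0.18 without UMBO replicate 1. It was the member for which UMBO replicate 2 lay inside the vehicle range.

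Slc1a2, the main forebrain glutamate transporter (ENSMUSG00000005089, chromosome 2, 102658659 to 102790784), had the widest range of the 10. It was at 2739, 1798 and 2887 CPM in the vehicle libraries, at 2491 CPM in UMBO replicate 1 and at 765 CPM in UMBO replicate 2. UMBO replicate 1 lay within the vehicle range, and UMBO replicate 2 lay below every vehicle library. The log2 fold change was -0.60 (SE 0.557, 95% interval -1.97 to 0.76, edgeR adjusted p 0.575). Without UMBO replicate 2 it was 0.01. Without UMBO replicate 1, with a single UMBO library left whose spread was assumed to be that of the vehicle libraries, it was -1.72 (edgeR adjusted p 0.0409), in a fit that called 4543 genes. The highest library was 3.77-fold above the lowest, a log2 range larger than that of 81.5% of the genes tested.

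Slc1a3 (ENSMUSG00000005360, chromosome 15, 8634124 to 8710764, reverse strand), the GLAST transporter, was at 473, 516 and 618 CPM with vehicle and at 551 and 327 CPM with UMBO. As for Slc1a2, UMBO replicate 1 was within the vehicle range and UMBO replicate 2 below it. Its log2 fold change was -0.29 (SE 0.306, 95% interval -1.04 to 0.46, edgeR adjusted p 0.619), and it was 0.04 without UMBO replicate 2. Glul (ENSMUSG00000026473, chromosome 1, 153899944 to 153909723), which turns the glutamate taken up into glutamine, was at 1422, 1516 and 1629 CPM with vehicle and at 1511 and 1140 CPM with UMBO. Here too UMBO replicate 2 was the lowest library and UMBO replicate 1 lay within the vehicle range. The log2 fold change of Glul was -0.20 (SE 0.277, 95% interval -0.88 to 0.48, edgeR adjusted p 0.699), and it was -0.01 without UMBO replicate 2.

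Aldoc (ENSMUSG00000017390, chromosome 11, 78322968 to 78327781), the brain aldolase, was at 656, 776 and 793 CPM with vehicle and at 841 and 646 CPM with UMBO. Its group means of 742 and 743 CPM differed least of the 10 genes (95% interval of the log2 fold change -0.62 to 0.63, edgeR adjusted p 0.997), and its 1.30-fold range over the libraries was the narrowest. The UMBO mean joined the highest and the lowest library, and the log2 fold change was 0.18 without UMBO replicate 2 and -0.23 without UMBO replicate 1.

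Aldh1l1 and S100b were the 2 members of the 10 with both UMBO libraries above every vehicle library, a pattern that 11.5% of all genes tested showed, and no member had both below (11.4%, or 22.9% in either direction). Aldh1l1 (ENSMUSG00000030088, chromosome 6, 90486427 to 90600203), a folate enzyme of astrocytes, was at 61.6, 76.5 and 68.7 CPM with vehicle and at 88.2 and 89.1 CPM with UMBO. The means were 68.9 ± 7.47 CPM (SD, n = 3) and 88.6 ± 0.648 CPM (SD, n = 2). This was a log2 fold change of 0.36 (SE 0.171, 95% interval -0.06 to 0.78, edgeR adjusted p 0.497), and it lay between 0.29 and 0.47 when each library was left out in turn. It was the 1 member with nearly equal values in the UMBO libraries.

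S100b (ENSMUSG00000033208, chromosome 10, 76253853 to 76261159), the calcium-binding protein, was at 116, 160 and 137 CPM with vehicle, at 170 CPM in UMBO replicate 1 and at 235 CPM in UMBO replicate 2. The UMBO replicate 1 value was close to that of vehicle replicate 2. The means were 138 ± 22.1 CPM (SD, n = 3) and 203 ± 45.7 CPM (SD, n = 2), a log2 fold change of 0.56 (SE 0.242, 95% interval -0.03 to 1.15, edgeR adjusted p 0.497). It was 0.31 without UMBO replicate 2 and 0.75 without UMBO replicate 1. The sum of 6 markers of oligodendrocyte progenitors, which can make S100b, moved the same way. It was 293, 358 and 351 CPM with vehicle and 506 and 582 CPM with UMBO. The log2 fold change was above 0 in 5 of the 6 and below 0 in 1 (50.9% of all genes tested were above 0). Of these 6, 3 were higher at an edgeR unadjusted p under 0.05 (5.30% of all genes tested) and 0 at an adjusted one. In 2 of the 6 both UMBO libraries were above every vehicle library (11.5% of all genes tested). The 10 markers of mature oligodendrocytes did not move this way, with 2 above 0 and 8 below (median log2 fold change -0.04). The part of either cell type in the S100b values was not tested.

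**Figure D2:**
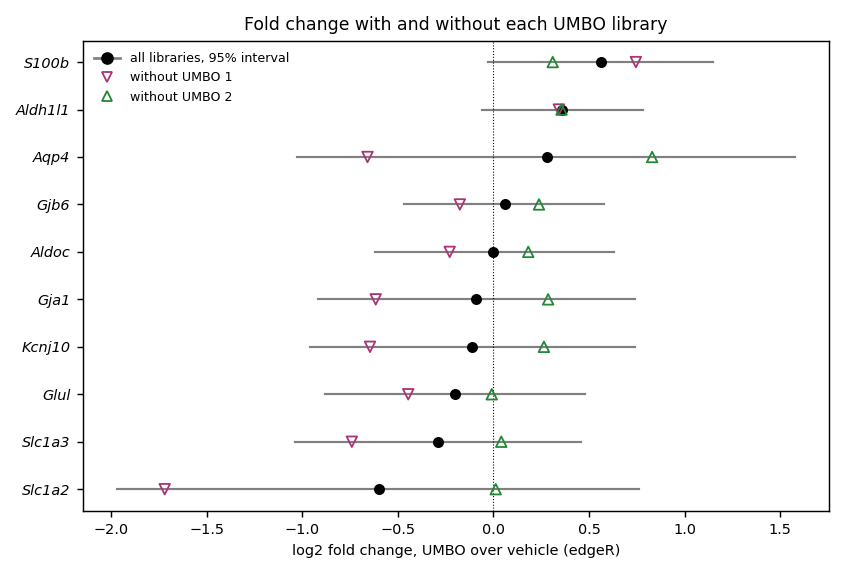
Log2 fold change of UMBO over vehicle (horizontal axis) for each gene from edgeR with all 5 libraries (black points, lines show the 95% interval), without UMBO replicate 1 (downward triangles) and without UMBO replicate 2 (upward triangles). All 10 intervals include 0, and for Aqp4, Kcnj10, Gja1, Gjb6, Aldoc, Slc1a2 and Slc1a3 the triangles lie on different sides of 0.

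Relative to the vehicle mean on the log2 scale, the median of the 10 genes was -0.20, -0.02 and 0.18 in vehicle replicates 1 to 3, 0.27 in UMBO replicate 1 and -0.47 in UMBO replicate 2. Slc1a2 deviated most in UMBO replicate 2, at -1.66, followed by Slc1a3 at -0.70, Kcnj10 at -0.59, Gja1 at -0.56 and Aqp4 at -0.53. S100b, at 0.79, and Aldh1l1, at 0.38, deviated the other way in that library. In UMBO replicate 1 the largest deviation was that of Aqp4, at 0.93, which vehicle replicate 3 approached at 0.72.

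**Figure D3:**
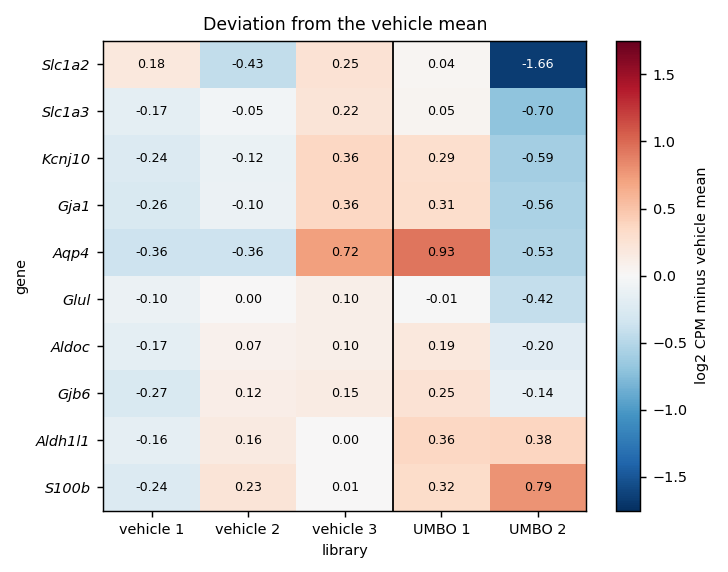
Log2 CPM of each gene (rows, ordered by the value in UMBO replicate 2) minus its mean over the vehicle libraries, in the 3 vehicle and 2 UMBO libraries (columns, with the vertical line between the groups). In UMBO replicate 2 the values run from -1.66 for Slc1a2 to 0.79 for S100b, and in UMBO replicate 1 from -0.01 for Glul to 0.93 for Aqp4.

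Profiles were compared by the root mean square difference of centred log2 CPM over the 5 libraries, where 0 means the same shape. Kcnj10 and Gja1 were the most alike pair among the members, at 0.021. Each was the nearest gene of the other among 12721 genes with a mean of at least 5 CPM, which was noted after the values were seen. Gjb6 and Aldoc followed at 0.0614. The least alike were Slc1a2 and S100b, at 1.02. Slc1a2 reads outnumbered S100b reads 23.7-fold, 11.2-fold and 21.1-fold in the vehicle libraries, 14.6-fold in UMBO replicate 1 and 3.25-fold in UMBO replicate 2. Slc1a2 was the member least like any other, since its nearest member, Slc1a3, was only the 2944th of its nearest genes. The 3 non-members with the profile most like the median of the members were Atp1b2 (0.0245), a sodium pump subunit of astrocytes, Sfxn5 (0.034), a mitochondrial carrier, and 2310022B05Rik (0.0362), out of 10484 genes that met the level and range minimums. Atp1b2 was at 548, 611 and 750 CPM with vehicle and at 725 and 449 CPM with UMBO.

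The 250 bases before a transcription start are shown for these contrasting pairs, Kcnj10 with Gja1 (most alike) and Slc1a2 with S100b (least alike). They are RefSeq sequences on GRCm38.p6, written 5′ to 3′ on the gene's strand. Capitals mark the half-site of nuclear factor I, TTGGC or its complement GCCAA, since NFIA and NFIB are transcription factors of the astrocyte lineage. The Slc1a2 start in RefSeq lies inside the longer GENCODE gene, which begins upstream at 102658659. The bases before that upstream start are not shown. The Slc1a2 window holds a short exon of another transcript.
Kcnj10, chr1:172340960-172341209, forward strand: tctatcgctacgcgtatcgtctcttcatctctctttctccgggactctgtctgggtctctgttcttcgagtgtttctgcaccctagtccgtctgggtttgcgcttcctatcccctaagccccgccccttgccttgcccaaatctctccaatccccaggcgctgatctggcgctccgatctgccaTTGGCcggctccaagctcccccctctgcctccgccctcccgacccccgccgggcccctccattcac
Gja1, chr10:56377050-56377299, forward strand: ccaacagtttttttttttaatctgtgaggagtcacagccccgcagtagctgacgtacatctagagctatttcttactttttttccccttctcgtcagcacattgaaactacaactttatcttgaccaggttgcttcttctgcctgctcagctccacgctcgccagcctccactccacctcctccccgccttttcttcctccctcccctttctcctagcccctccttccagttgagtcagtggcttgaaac
Slc1a2, chr2:102706188-102706437, forward strand: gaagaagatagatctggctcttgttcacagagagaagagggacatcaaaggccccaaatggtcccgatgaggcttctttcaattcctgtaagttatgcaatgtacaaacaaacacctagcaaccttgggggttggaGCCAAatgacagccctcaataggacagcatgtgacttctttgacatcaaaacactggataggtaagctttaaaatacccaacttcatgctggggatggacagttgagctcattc
S100b, chr10:76253586-76253835, forward strand: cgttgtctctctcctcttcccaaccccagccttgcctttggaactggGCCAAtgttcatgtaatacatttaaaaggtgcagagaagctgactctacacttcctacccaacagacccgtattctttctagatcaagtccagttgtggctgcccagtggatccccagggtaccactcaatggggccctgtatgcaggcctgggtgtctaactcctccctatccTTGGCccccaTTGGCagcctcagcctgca

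The window of S100b held 3 of these half-sites, those of Kcnj10 and Slc1a2 held 1 each and that of Gja1 held 0. In these windows, of which that of Slc1a2 precedes an internal start, the most alike pair did not share the half-site, and the least alike pair did. Whether the half-site goes with likeness of profile was not tested. In total 10 windows were matched for 9 of the 10 members (not Aqp4), with 2 for Aldoc. The half-site was in 5 of the 10 windows and in 41.5% of 32841 promoter windows of that length. The SOX core ACAAAG was in 0 of the 10 and in 16.5% of all, and the STAT motif TTCNNNGAA in 2 of the 10, 1 for Slc1a3 and 1 for Aldoc, and in 7.02% of all. The GC box GGGCGG was in 5 of the 10 and in 32.7% of all, and the E-box CANNTG in 7 of the 10 and in 66.2% of all. Both strands were searched (N is any base), and no motif contains another, although sites of different motifs can share bases. These are matches of letters, not binding sites.

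Levels between genes were compared as RPKM, here CPM per kilobase of exonic length. Glul was highest, with a mean of 434 over the 5 libraries, then Aldoc (228), Slc1a2 (163), S100b (110), Kcnj10 (59.1), Slc1a3 (58.2), Aqp4 (29.2), Gjb6 (21.3), Gja1 (20.4) and Aldh1l1 (17.0). Glul exceeded Aldoc, S100b exceeded Kcnj10 and Slc1a3 exceeded Aqp4 in 5 of 5 libraries and by more than the SD of the log2 ratio. The other neighbours in this order did not differ beyond their spread. In UMBO replicate 2 Slc1a2, at 58.2 RPKM, was below S100b, at 158, while it was above S100b in the other 4 libraries. With the longest transcript as gene length, 6 of the 10 ranks changed, and Slc1a3 moved from rank 6 to rank 4 and Gja1 from rank 9 to rank 7.

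**Figure D4:**
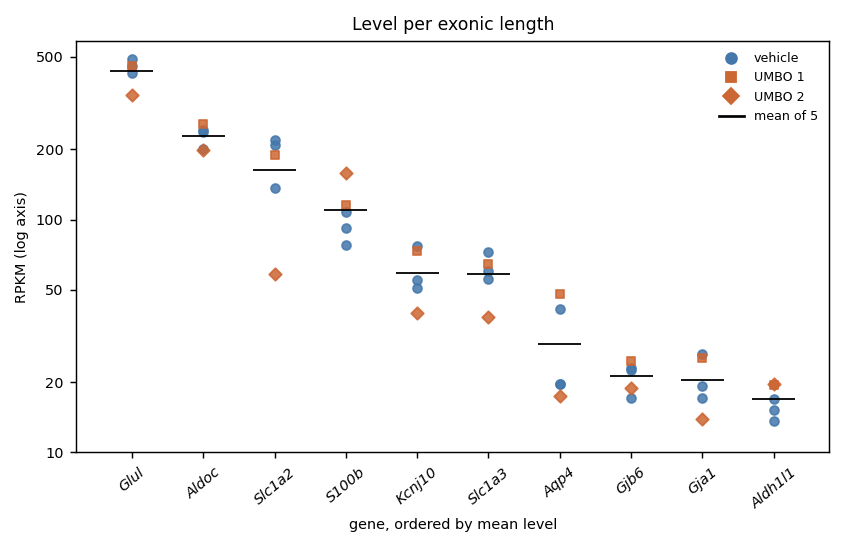
RPKM of each gene (vertical log axis) in every library, ordered by the mean of the 5 libraries (black line), with vehicle as circles, UMBO replicate 1 as squares and UMBO replicate 2 as diamonds. Glul is at 343 to 490 and Aldh1l1 at 13.6 to 19.7, and Slc1a2 spans 58.2 to 220.

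The balance within 5 pairs of functional partners was compared as the ratio of the values per length, which does not depend on how a library is scaled. The size of a ratio depends on the gene length used, but its difference between the groups does not. For Slc1a2 to Slc1a3 it was 3.76, 2.27 and 3.03 with vehicle and 2.94 and 1.52 with UMBO. UMBO replicate 1 lay within the vehicle range and UMBO replicate 2 had the lowest ratio. With the longest transcript as gene length the ratios were lower, at 2.21, 1.33 and 1.79 with vehicle and 1.73 and 0.895 with UMBO. The vehicle libraries had a mean log2 ratio of 1.56 ± 0.367 (SD, n = 3) and the UMBO libraries one of 1.08 ± 0.672 (SD, n = 2), so UMBO minus vehicle was -0.48 (2-sided exact permutation test, p = 0.4). For Slc1a2 to Glul, uptake against conversion, the ratio was 0.487, 0.300 and 0.448 with vehicle and 0.417 and 0.170 with UMBO, a log2 difference of -0.60 (2-sided exact permutation test, p = 0.4). These differences rested on UMBO replicate 2, without which they were -0.01 and 0.05.

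For the connexins, Gja1 to Gjb6 was 0.992, 0.850 and 1.15 with vehicle and 1.03 and 0.735 with UMBO, a log2 difference of -0.18 (2-sided exact permutation test, p = 0.5). It was 0.06 without UMBO replicate 2. With the longest transcript as length, Gja1 exceeded Gjb6 in 5 of 5 libraries, at 1.53 to 2.38. For Aqp4 to Kcnj10 the ratio was 0.387, 0.356 and 0.538 with vehicle and 0.654 and 0.438 with UMBO, a log2 difference of 0.35 (2-sided exact permutation test, p = 0.4), and 0.06 without UMBO replicate 1. For Gja1 to Slc1a2 it was 0.082, 0.140 and 0.120 with vehicle and 0.134 and 0.239 with UMBO, a log2 difference of 0.69 (2-sided exact permutation test, p = 0.3), and 0.27 without UMBO replicate 2. By the longest transcript it was 0.191, 0.327 and 0.279 with vehicle and 0.313 and 0.556 with UMBO. The 5 libraries allow 10 groupings, so no p can go below 0.1, and adjusted over the 5 pairs by the Benjamini-Hochberg method each permutation p was 0.5.

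Partners of these genes, from lists of endfoot, glutamate cycle, gap junction and astrocyte identity genes, were read in the same fit. The glutamate cycle and gap junction lists also hold genes of neurons, and the latter genes of oligodendrocyte-lineage cells and vessels. Of 17 endfoot genes (among them the dystrophin scaffold and other channels) 6 had a fitted log2 fold change above 0 and 11 below, with 0 at an edgeR unadjusted p under 0.05 and a median of -0.15. UMBO replicate 2 was the lowest library in 11 of the 17 and the highest in 2, against the lowest in 7 and the highest in 2 of the 10 members (39.8% and 40.4% of all genes tested). Dmd, the dystrophin gene, was at 74.3, 44.1 and 74.8 CPM with vehicle and 57.0 and 17.2 CPM with UMBO (log2 fold change -0.80, SE 0.528, edgeR adjusted p 0.502). Megf10, a phagocytic receptor, had a log2 fold change of -0.43 (SE 0.249, edgeR adjusted p 0.497).

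Of 21 genes of the glutamate and glutamine cycle outside the members, 4 had a value above 0 and 17 below (median -0.30 on the log2 scale). Of all genes tested 50.9% were above 0. UMBO replicate 2 was lowest in 17 of the 21 (39.8% of all genes tested). One had an edgeR unadjusted p under 0.05 (7.37% of all genes tested), and 0 an adjusted one. It was Slc38a5, a glutamine transporter, at 1.93, 2.64 and 2.7 CPM with vehicle and 3.49 and 6.55 CPM with UMBO (log2 fold change 1.05, SE 0.368, edgeR adjusted p 0.497). Slc1a5, a neutral amino acid transporter of the same family as Slc1a2, was at 4.6, 12 and 5.1 CPM with vehicle and 8.40 and 40.6 CPM with UMBO, opposite to Slc1a2 in UMBO replicate 2. Slc17a7, the vesicular glutamate transporter of cortical neurons, was at 1237, 812 and 739 CPM with vehicle and 1127 and 390 CPM with UMBO. Got1, an aspartate aminotransferase, had both UMBO libraries, at 253 and 187 CPM, below the vehicle range of 257 to 305 CPM (log2 fold change -0.32, SE 0.232, edgeR adjusted p 0.515). Of the 21 genes 4 had this pattern (11.4% of all genes tested) and 2 the opposite one (11.5%).

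Of 11 other gap junction genes 8 were above 0 and 3 below, around a median of 0.21 on the log2 scale, with 0 at an edgeR unadjusted p under 0.05. Gjc3, the connexin Cx29 of oligodendrocyte-lineage cells, was at 90.9, 105 and 87.8 CPM with vehicle and 110 and 165 CPM with UMBO (log2 fold change 0.54, SE 0.231, edgeR adjusted p 0.497). Gja4, the connexin Cx37 of vessels, had a log2 fold change of 0.68 (SE 0.312, edgeR adjusted p 0.497), and the neuronal channel gene Panx2 one of -0.35 (SE 0.290, edgeR adjusted p 0.543). Of 20 astrocyte identity genes 11 were above 0 and 9 below, with a median of 0.04. Sdc4, a syndecan, was at 55.8, 92.5 and 82.8 CPM with vehicle and 109 and 148 CPM with UMBO (log2 fold change 0.74, SE 0.274, edgeR unadjusted p 0.036, adjusted p 0.497). Gpc5, a glypican of astrocytes, had both UMBO libraries, at 27.6 and 15.4 CPM, below the vehicle range of 31.8 to 41.0 CPM (log2 fold change -0.70, SE 0.293, edgeR adjusted p 0.497). Of the 20 genes 1 had this pattern (11.4% of all genes tested) and 4 the opposite one (11.5%). The most abundant of this list, Ttyh1 and Pla2g7, had log2 fold changes of -0.27 (SE 0.276) and 0.08 (SE 0.229), with edgeR adjusted p of 0.604 and 0.867.

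Of the 12 reactive astrocyte genes all 12 were above 0 (50.9% of all genes tested), at a median of 1.72 on the log2 scale. At an edgeR unadjusted p under 0.05, 7 were higher (5.30% of all genes tested), and 0 passed at an adjusted one. UMBO replicate 2 was the highest library in all 12 (40.4% of all genes tested). Gfap, the intermediate filament of reactive astrocytes, was at 214, 515 and 388 CPM with vehicle and 1396 and 1636 CPM with UMBO (log2 fold change 2.03, SE 0.401, edgeR adjusted p 0.497). Vim, which other cells also express, was at 68.3, 250 and 83.5 CPM with vehicle and 278 and 943 CPM with UMBO (log2 fold change 2.19, SE 0.733, edgeR adjusted p 0.497). Relative to the vehicle mean, the median of the reactive list was -0.60, 0.70 and -0.22 in vehicle replicates 1 to 3, 0.87 in UMBO replicate 1 and 2.39 in UMBO replicate 2. By this median vehicle replicate 2 was close to UMBO replicate 1, where the members were at 0.27. UMBO replicate 2, where the members were at -0.47, lay far above the rest. The summed levels of the list were further apart, at 984 CPM in vehicle replicate 2 and 1896 CPM in UMBO replicate 1. Gfap gave 515 and 1396 CPM of these sums. The groups were separate, with UMBO higher, for 7 of the 12 genes (11.5% of all genes tested), and they overlapped for 5.

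Several other marker lists also had their lowest or highest sums in UMBO replicate 2. The ependymal and cerebellar lists did not, at 46.7 and 192 CPM there, within the vehicle ranges of 32.6 to 51.2 and 190 to 265 CPM. The 10 neuronal markers summed to 11026, 7559 and 7837 CPM in the vehicle libraries, 7426 CPM in UMBO replicate 1 and 3765 CPM in UMBO replicate 2, and 9 of 10 had a fitted value below 0. The 10 oligodendrocyte markers summed to 6283 to 6394 CPM with vehicle, 6645 CPM in UMBO replicate 1 and 5698 CPM in UMBO replicate 2. The 10 proliferation genes summed to 33.1 to 100 CPM with vehicle, 110 CPM in UMBO replicate 1 and 440 CPM in UMBO replicate 2. All 10 were higher at an edgeR unadjusted p under 0.05 (5.30% of all genes tested) and 0 at an adjusted one. Their part in the member values was not tested.

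**Figure D5:**
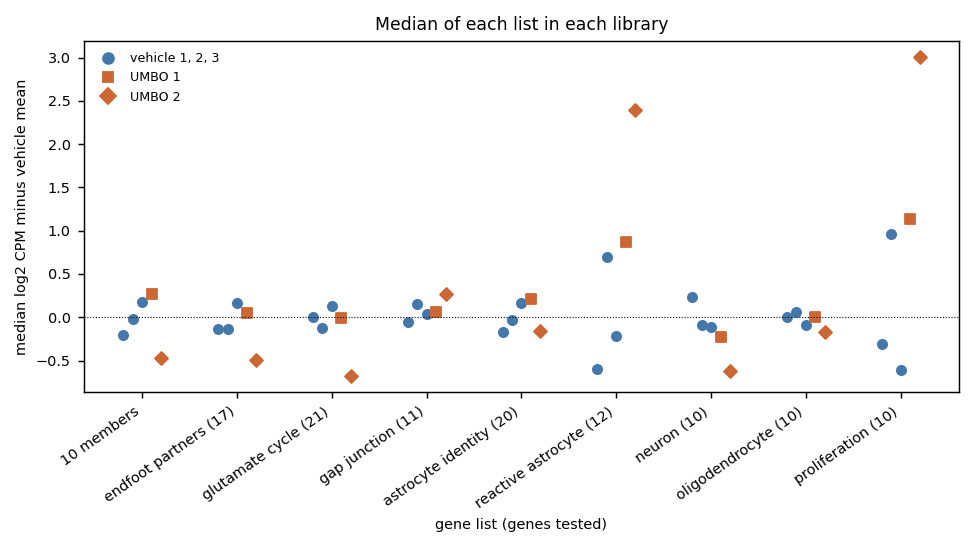
Median over the genes of a list of log2 CPM minus the vehicle mean (vertical axis) in the vehicle libraries (circles), UMBO replicate 1 (square) and UMBO replicate 2 (diamond), for the 10 members and 8 other lists with the number of genes tested in brackets. UMBO replicate 2 lies at -0.47 for the members, -0.68 for the glutamate cycle and -0.62 for neurons, against 2.39 for reactive astrocytes and 3.01 for proliferation.

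Some counts carry a limit of the annotation. Exons of Slc1a2, Glul and Aldh1l1 overlap other genes, over 1.44% to 11% of their exonic length. Whether counting used strand is not stated, but none of these neighbours exceeded 3.21 CPM in any library, against at least 61.6 CPM for the members concerned. Exons of Gpc5, Ttyh1 and Pla2g7 also overlap genes on the opposite strand, and reads of such partners cannot be told apart without strand.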

How the data were processed

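RNA was extracted from the right hemisphere and libraries were prepared with a SMARTER mRNA kit. The authors mapped reads to GRCm38 (mm10) with STAR 2.7.2a, and the deposited values are raw counts of reads per gene, not normalized, in 1 table per library. The annotation release and the strand setting are not given in the sources used here. GENCODE M21, on the same build, gave symbols for 55480 of 55573 rows, as well as positions and exonic lengths. Counts were filtered with filterByExpr, normalized by TMM and compared (3 vehicle against 2 UMBO libraries) in R 4.3.3 by quasi-likelihood F-tests (edgeR 4.0.16), with Benjamini-Hochberg adjustment over 23592 genes and a threshold of 0.05. The standard error is the size of the log2 fold change divided by the square root of the F statistic, and intervals are 95%. Log2 CPM used a prior count of 2. The study's methods named DESeq2, and DESeq2 1.42.0 and limma 3.58.1 were alternatives. Pair ratios were tested by 2-sided exact permutation.

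The members and gene lists were chosen with earlier results of these data known. Named genes were all members, the 2 genes with the smallest p and the 2 with the highest RPKM in each partner list, Gfap, Vim and the 3 genes with the nearest profile (mean of at least 5 CPM, profile range at least 0.5 times that of the members' median), besides those marked as noted afterwards. One gene that this rule names is not reported here. The code was tested on simulated data. Groups came from the sample titles. Precision was set by the number of mice, not by depth. The alternatives were other scaling, filters and tests, the replicate number as a block and each library left out.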

Additional observations from a re-analysis of the deposited data

How the results depend on the processing

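No member had an adjusted p under 0.05 in any fit with all libraries, and Aldh1l1, Glul and S100b kept the sign of their log2 fold change in all 12 alternative fits. Adjusted calls at 0.05 numbered 0 in edgeR and 40 in the DESeq2 Wald test. Unadjusted calls at 0.05 numbered 1738, 4100 with no filter on low counts, 864 with a minimum of 5 CPM in 2 libraries (both test another number of genes) and 2738 with the DESeq2 Wald test, for which the cause was not tested. Library size as the only scaling shifted the all-gene median from 0.01 to 0.13, put 2 members (Aldh1l1 and S100b) at an unadjusted p under 0.05 and turned Gja1 to 0.00535. Aldoc, at 0.00253 in the main fit, was at -0.0027 with DESeq2 size factors, -0.0183 with no filter, -0.0182 with DESeq2 and -0.00992 with limma-voom. With library size only it was at 0.105. Of the 1738 genes 1251 were higher and 487 lower, against 1502 and 395 with library size only and 793 and 610 with limma-voom.

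Over the fits that left out 1 library each, adjusted calls ranged from 0 to 4543 genes (the latter without UMBO replicate 1) and unadjusted ones from 296 (without vehicle replicate 1) to 10165 (without UMBO replicate 1), members higher from 2 to 9, members with an unadjusted p under 0.05 from 0 to 3, members with an adjusted one from 0 to 1 (Slc1a2, without UMBO replicate 1), and the members' median from -0.53 to 0.25. On the log2 scale UMBO minus vehicle spanned -0.66 to 0.83 for Aqp4, -0.65 to 0.26 for Kcnj10, -1.72 to 0.0117 for Slc1a2, -0.74 to 0.0408 for Slc1a3, -0.62 to 0.29 for Gja1, -0.18 to 0.24 for Gjb6 and -0.23 to 0.18 for Aldoc, mostly between the fits without one or the other UMBO library, but also 0.092 for Kcnj10 and 0.116 for Gja1 without vehicle replicate 3 and -0.0652 for Gjb6 and -0.0791 for Aldoc without vehicle replicate 1. The log2 ratio difference ranged from -0.43 to 0.0604 for Gja1 to Gjb6 and from -1.25 to 0.048 for Slc1a2 to Glul. The other 3 pairs kept their sign. The longest transcript as gene length, an alternative chosen for the ratios after seeing the data, moved the vehicle geometric mean from 2.96 to 1.74 for Slc1a2 to Slc1a3, from 0.989 to 2.05 for Gja1 to Gjb6 and from 0.111 to 0.259 for Gja1 to Slc1a2.

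Under the replicate block 2337 adjusted and 6134 unadjusted calls were made, 1 member (S100b) had an unadjusted p under 0.05 and none an adjusted one, and Kcnj10 was at 0.0281 and Gja1 at 0.0543. Libraries with the same number deviated together (correlations 0.453 and 0.76), but the groups share just 2 numbers and nothing states that a number marks a shared litter or day, so the numbers do not establish pairs.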

Other observations

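Markers of other cells of the hemisphere were read in the same edgeR fit, in which 0 genes of any list had an adjusted p under 0.05. Of 10 microglia markers 9 were higher in each UMBO library than in any vehicle library (11.5% of all genes tested). The median of the 10 was 0.69 on the log2 scale, and 7 were higher at an unadjusted p under 0.05 (5.30% of all genes tested). Of 10 endothelial markers 5 were separated in the same direction (again against 11.5%). The median of the 10 was 0.53, and the list lay at 0.56 above the vehicle mean in each UMBO library. The medians were 2.23 for 10 monocyte and macrophage genes, 2.21 for the 10 proliferation genes, 0.71 for 6 oligodendrocyte progenitor genes, 0.59 for 6 red blood cell genes and 0.36 for 6 heat shock genes. They were 0.20 for 6 ependymal genes, -0.04 for 10 oligodendrocyte genes, -0.17 for the 6 cerebellar genes tested of 8, -0.41 for the neuronal genes and -0.48 for 8 choroid plexus genes. UMBO replicate 2 carried several of these values. Relative to the vehicle mean, the monocyte and macrophage list was at 0.60 in UMBO replicate 1, below the 1.15 of vehicle replicate 2, and at 3.47 in UMBO replicate 2. In the same order of UMBO libraries the proliferation list was at 1.13 and 3.01 (0.96 in vehicle replicate 2), the heat shock list at 0.09 and 0.60, the neuronal list at -0.23 and -0.62 and the choroid plexus list at -0.09 and -0.89. The lists are read from the same 5 libraries and are not independent.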
